A study of Mus musculus with 4 samples.

Results

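The fatty acid desaturases and elongases described here are 10 genes given by name: the stearoyl-CoA desaturases Scd1 and Scd2, the front-end desaturases Fads1 and Fads2, and the elongases Elovl1, Elovl2, Elovl3, Elovl5, Elovl6 and Elovl7. A gene was measured where an array row was annotated to it alone, and the row with the highest mean over the 4 arrays was used. This held for 9 of the 10 members among 22180 genes tested, each with a single row. The only row of Scd2 is also annotated to the microRNA gene Mir5114, so no value is credited to Scd2. The samples were whole livers of wild-type male C57BL/6J mice, an inbred strain, that were 6 weeks old when feeding began and were fed for 20 weeks. The groups were a diet deficient in methionine and choline (MCD, n = 2 samples) and a normal diet (n = 2 samples), with 1 array per sample. The labels number the samples without saying whether each holds 1 mouse or a pool, or how they were taken. The p-values thus cover only the spread between these samples.

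In mammals, saturated fatty acids made in the cytosol are lengthened and given double bonds at the endoplasmic reticulum. Elongases of the Elovl family add a pair of carbons to an activated fatty acid in the rate-limiting, condensing step of a cycle that other enzymes complete. Scd enzymes introduce the double bond that turns stearate into oleate, while Fads1 and Fads2 act with Elovl2 and Elovl5 in making long polyunsaturated fatty acids from dietary precursors. Liver is a main site of these reactions, and several of the genes are known targets of the lipogenic factor SREBP-1c and of the nuclear receptors LXR and PPAR alpha. The diet lacking methionine and choline is widely used in mice to produce fatty liver with inflammation.

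Of the 9 members measured, 4 fell and 2 rose on the MCD diet, and 3 did not pass the test. Elovl3, Scd1, Elovl2 and Fads1 were lower. Elovl1 and Elovl7 were higher. The test was limma's moderated linear model over all genes with Benjamini-Hochberg adjustment and a threshold on adjusted p of 0.05. By the same rule 9.98% of all genes were called, 3.62% as lower and 6.37% as higher (1412 genes higher and 802 lower, against 1303 and 1046 under quantile normalization and 1181 and 1008 under median centring). The median difference of the 9 members was -0.98 on the log2 scale, against -0.03 over all genes tested. For 8 of the 9 members no array of 1 diet reached into the range of the other, 6 being lower and 2 higher, against 54.2% of all genes (29.2% lower and 25.0% higher). The members were chosen with results of these data known, so these shares are a description. The count of called members was 3 when MCD diet replicate 1 was left out, and also 3 when normal diet replicate 2 was. The count over all genes, 2214, was 1050 and 1093 in those cases and 1321 with normal diet replicate 1 left out.

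**Figure D1:**
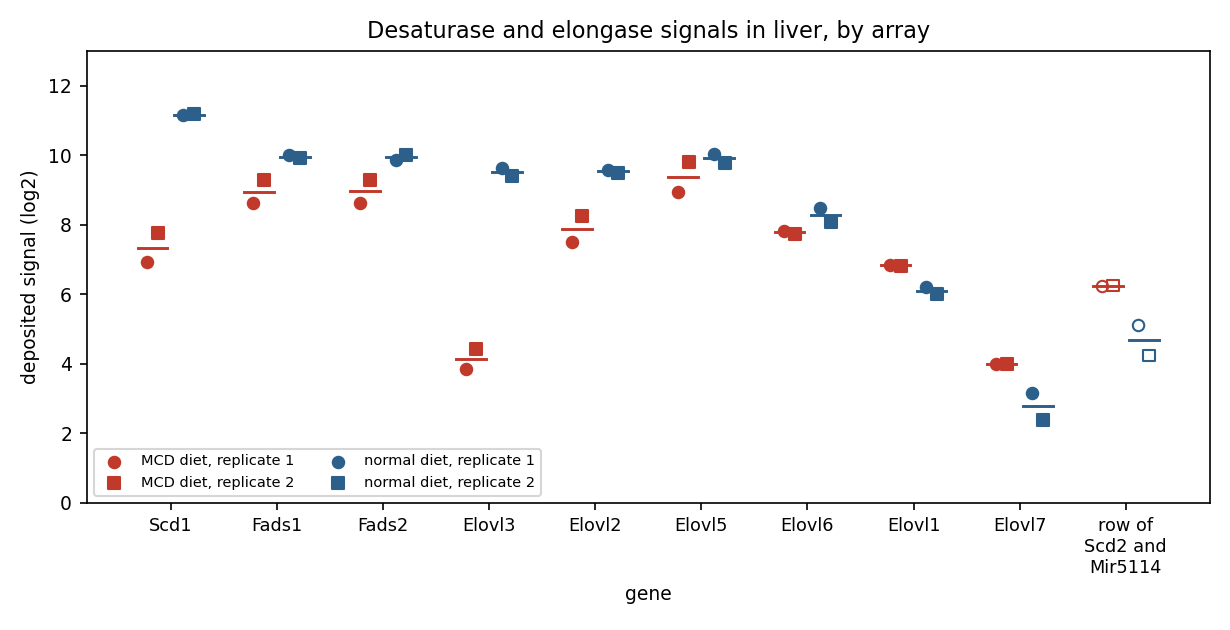
Deposited log2 signal (vertical axis) of each member on each array, MCD diet in red and normal diet in blue, with horizontal bars at the mean of the 2 arrays. Open symbols mark the row annotated to both Scd2 and Mir5114. The diets overlap in Elovl5 alone among the 9 members; Scd1 and Elovl3 lie far below their normal diet values, and Elovl1 and Elovl7 lie above theirs.

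Sequence upstream of a start site is shown for the 3 called members that the RefSeq promoter table holds, since these moved in opposite directions. Each line gives the 250 bases before a RefSeq start (build GRCm38.p6), 5′ to 3′ on the strand of the gene. Elovl2, which fell, comes from chr13:41220404-41220653 on the minus strand. Elovl1, which rose, comes from chr4:118427843-118428092 on the plus strand. Elovl7, which rose, comes from chr13:108214154-108214403 on the plus strand. Elovl1 and Elovl2 each have a second start in the table, and the upstream one is printed. Capitals mark matches on either strand to the motifs searched, which here are GC boxes (GGGCGG, a binding motif of Sp1) and 1 CCAAT box (CCAAT, bound by NF-Y) that overlaps a GC box in Elovl1.
Elovl2: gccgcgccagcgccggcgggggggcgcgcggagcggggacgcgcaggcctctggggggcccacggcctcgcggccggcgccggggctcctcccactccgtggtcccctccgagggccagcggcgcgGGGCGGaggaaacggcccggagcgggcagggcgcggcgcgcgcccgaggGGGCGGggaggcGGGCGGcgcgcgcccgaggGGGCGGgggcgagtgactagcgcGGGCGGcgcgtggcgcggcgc
Elovl1: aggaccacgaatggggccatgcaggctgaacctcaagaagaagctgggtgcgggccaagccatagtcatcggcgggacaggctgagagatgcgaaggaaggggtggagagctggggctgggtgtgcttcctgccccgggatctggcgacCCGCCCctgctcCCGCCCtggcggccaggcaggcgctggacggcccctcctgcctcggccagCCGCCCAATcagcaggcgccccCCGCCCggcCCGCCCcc
Elovl7: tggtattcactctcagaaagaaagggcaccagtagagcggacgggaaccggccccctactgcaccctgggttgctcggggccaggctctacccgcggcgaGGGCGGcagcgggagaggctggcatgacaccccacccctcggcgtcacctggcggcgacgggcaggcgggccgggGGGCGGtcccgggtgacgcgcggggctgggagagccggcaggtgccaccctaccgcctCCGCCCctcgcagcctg

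The table matched 6 of the 10 members, Elovl1, Elovl2, Elovl5, Elovl6, Elovl7 and Fads2, with 8 windows. A GC box was found in 5 of the 8 windows, in Elovl1, Elovl2, Elovl7 and Fads2, against 32.7% of the 32851 windows of this length in the table. The windows of the members were rich in G and C, with a median of 68.4% against 52.4% over all windows. The CCAAT box was found in windows of Elovl1 and Elovl5 (33.8% of all windows) and the E-box CACGTG, a motif of basic helix-loop-helix factors such as USF1, in that of Elovl5 alone (6.02% of all windows). The letters TCACNCCAC, a sterol regulatory element bound by SREBPs, were in 0 of the 8 windows and in 1.05% of all. Exact direct repeats of the nuclear receptor half-site with 4 bases or 1 base between them, as bound by LXR and PPAR with RXR, were in 0 of the 8 and in 0.0152% and 0.0335% of all. A match describes these letters only. The printed windows of the member that fell and of the members that rose all held GC boxes. Of the second windows, which are not printed, that of Elovl2 held 0 GC boxes and that of Elovl1 held 2.

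Scd1, the main stearoyl-CoA desaturase of adult mouse liver, fell most among the desaturases. Its log2 signal was 6.93 and 7.75 on the MCD diet arrays, against 11.14 and 11.17 on the normal diet arrays. The gap between the diets, 3.39, was wider than the difference between arrays of either diet. The mean was 7.34 ± 0.58 on the MCD diet and 11.15 ± 0.02 on the normal diet (SD, n = 2 each), a difference of -3.81 ± 0.26 (standard error, as for all differences below), or 14.0-fold lower (limma adjusted p = 0.00116). It was the 18th largest decrease among all genes tested, and the difference lay between -4.22 and -3.40 with any 1 array left out, past the threshold each time. RefSeq places Scd1 in a cluster with Scd2, Scd3 and Scd4, close relatives whose transcripts could share probe signal. Scd3 and Scd4 had dim signals of 1.94 to 2.08 on the MCD diet and 1.94 to 2.67 on the normal diet. Scd3 differed by -0.39 ± 0.18 and Scd4 by -0.06 ± 0.13, neither past the threshold (limma adjusted p = 0.259 and 0.821).

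Of the desaturases of polyunsaturated fatty acids, Fads1 fell and Fads2 did not pass. Fads1 had signals of 8.63 and 9.28 on the MCD diet, against 10.01 and 9.90 on the normal diet. It fell by 1.003 ± 0.22, and was 2.004-fold lower (limma adjusted p = 0.0432). Fads2, whose product feeds the later step of Fads1, had 8.62 and 9.29 on the MCD diet, against 9.85 and 10.01 on the normal diet. It differed by -0.98 ± 0.23 and just missed the threshold (limma adjusted p = 0.0506). Neither gene overlapped between the diets, and in both the MCD diet replicate 2 lay closer to the normal diet. The call of Fads1 was lost under quantile normalization (-0.86, limma adjusted p = 0.0798) and without MCD diet replicate 1 (-0.68, adjusted p = 0.0924), normal diet replicate 1 (-0.95, adjusted p = 0.141) or normal diet replicate 2 (-1.06, adjusted p = 0.127). Over its 13 alternatives the adjusted p of Fads1 ran between 0.0142 and 0.141. Fads2 differed by -0.64 without MCD diet replicate 1 (adjusted p = 0.114) and by -1.31 without MCD diet replicate 2, where it passed (adjusted p = 0.0164). It passed under 7 of 13 alternatives, with a range of 0.0164 to 0.189.

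Another gene of the same cluster went the other way. Fads3, which in mammals desaturates sphingoid bases rather than polyunsaturated fatty acids, had 6.80 and 5.48 on the MCD diet, against 4.27 and 3.80 on the normal diet. It rose by 2.10 ± 0.42 (limma adjusted p = 0.0311). The call was lost without normal diet replicate 1 (2.33, adjusted p = 0.0662) or replicate 2 (1.87, adjusted p = 0.127), within a range of 0.00634 to 0.127 over its alternatives. Among the 7 related genes outside the family as defined here, Fads3 rose, and Scd3, Scd4, Fads6, Elovl4, Degs1 and Degs2 did not pass. The largest difference among those 6 was that of Scd3.

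Elovl3 fell furthest of all members. It lengthens saturated and monounsaturated fatty acids into very long chains and is known in mouse liver for higher expression in males and a daily rhythm. Its signal was 3.85 and 4.42 on the MCD diet, against 9.61 and 9.40 on the normal diet, with a gap of 4.97 between the diets. The mean was 4.14 ± 0.41 on the MCD diet and 9.51 ± 0.15 on the normal diet (SD, n = 2 each). The difference of -5.37 ± 0.21, 41.4-fold lower (limma adjusted p = 0.000283), ranked 6th among all decreases. With any 1 array left out it lay between -5.66 and -5.08 and stayed past the threshold.

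Elovl2 and Elovl5, the elongases of polyunsaturated fatty acids, differed in how far the diets separated. Elovl2, which acts on the longer chains on the way to docosahexaenoic acid, had 7.50 and 8.25 on the MCD diet, against 9.58 and 9.49 on the normal diet. It fell by 1.66 ± 0.25, and was 3.16-fold lower without overlap (limma adjusted p = 0.012). The fall was 1.62 without normal diet replicate 1, where the call was lost (adjusted p = 0.0504, range over its alternatives 0.00515 to 0.0504). Elovl5, which acts on shorter polyunsaturated chains, had 8.94 and 9.81 on the MCD diet, against 10.05 and 9.77 on the normal diet. Its diets overlapped, since MCD diet replicate 2 lay within the normal diet values. The difference was -0.53 ± 0.29 (95% confidence interval -1.23 to 0.17, limma adjusted p = 0.331). It depended on single arrays: it was -0.97 and past the threshold without MCD diet replicate 2 (adjusted p = 0.0473), -0.10 without MCD diet replicate 1 (adjusted p = 0.849, the ends of its range), and -0.40 without normal diet replicate 1. Whether Elovl2 fell more than Elovl5 was not tested.

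Elovl6, which turns palmitate into stearate, the substrate of Scd1, had 7.83 and 7.74 on the MCD diet, against 8.47 and 8.09 on the normal diet. The diets did not overlap, by a narrow gap of 0.26. The difference was -0.49 ± 0.16 (95% confidence interval, unadjusted, -0.89 to -0.10) and did not pass (limma adjusted p = 0.126). It was -0.30 without normal diet replicate 1, and over its 13 alternatives the adjusted p lay between 0.0927 and 0.382.

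The 2 members that rose are elongases of saturated chains, but so are Elovl3, which fell, and Elovl6, which did not pass. Elovl1, which makes the very long chains found in sphingolipids, had 6.85 and 6.82 on the MCD diet, against 6.20 and 5.99 on the normal diet. It rose by 0.74 ± 0.13, 1.67-fold (limma adjusted p = 0.0214). Elovl7 had 3.99 on both MCD diet arrays, against 3.16 and 2.39 on the normal diet. It rose by 1.22 ± 0.25, 2.32-fold (limma adjusted p = 0.0338), and its dim normal diet signal leaves the size of the rise uncertain. Neither gene overlapped between the diets. Both calls depended on single arrays. That of Elovl1 was lost without MCD diet replicate 1 (0.72), MCD diet replicate 2 (0.755) or normal diet replicate 2 (0.64), with adjusted p between 0.0192 and 0.106 over its alternatives. That of Elovl7 was lost under quantile normalization (1.10) and without the same arrays, where the smallest rise was 0.84 without normal diet replicate 2, with adjusted p between 0.0085 and 0.131.

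**Figure D2:**
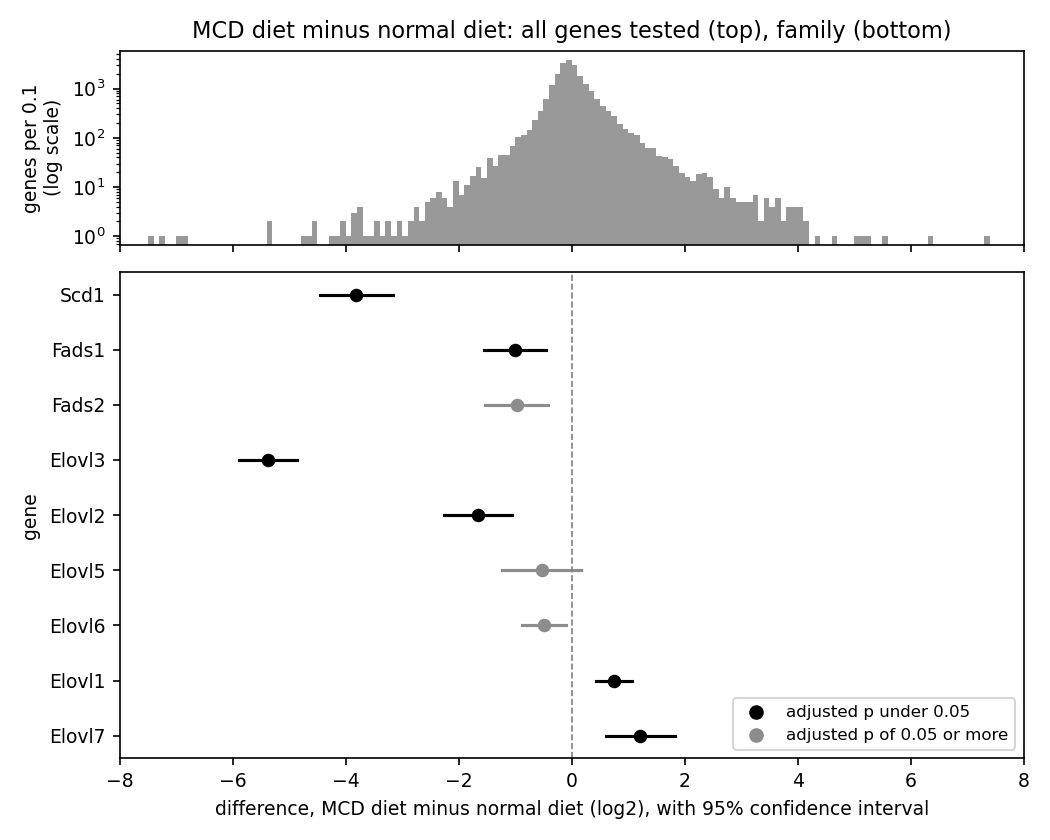
Top, number of genes per 0.1 step of the log2 difference (MCD diet minus normal diet) over all 22180 genes, on a log axis. Bottom, the difference of each measured member with its unadjusted 95% confidence interval from limma, in black where the adjusted p is under 0.05. Elovl3 at -5.37 and Scd1 at -3.81 lie in the far left tail, and the interval of Elovl5 includes 0.

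The MCD diet replicates were not equally far from the normal diet. Replicate 2 exceeded replicate 1 by more than 0.5 on the log2 scale in 6 of the 9 members, against 2.98% of all genes tested. The size of 0.5 was set after the values were seen. The difference between those arrays was 0.82 in Scd1, 0.65 in Fads1, 0.67 in Fads2, 0.75 in Elovl2, 0.57 in Elovl3 and 0.87 in Elovl5. Elovl1 (-0.03), Elovl6 (-0.08) and Elovl7 (0.00) were nearly equal on them. The genes of saturated fatty acid synthesis described below showed no such split, with 0 of 9 above 0.5, while 5 of those 9 were higher in normal diet replicate 1 than in replicate 2 by more than 0.3 (10.4% of all genes). Elovl6 (0.38) and Elovl7 (0.76) shared that difference between the normal diet arrays, the other 7 members did not. Macrophage markers ran against the members on the MCD diet arrays. By any margin 1 of 10 was higher in replicate 2, against 7 of the 9 members and 11590 of all 22180 genes. What sets these arrays apart was not tested.

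**Figure D3:**
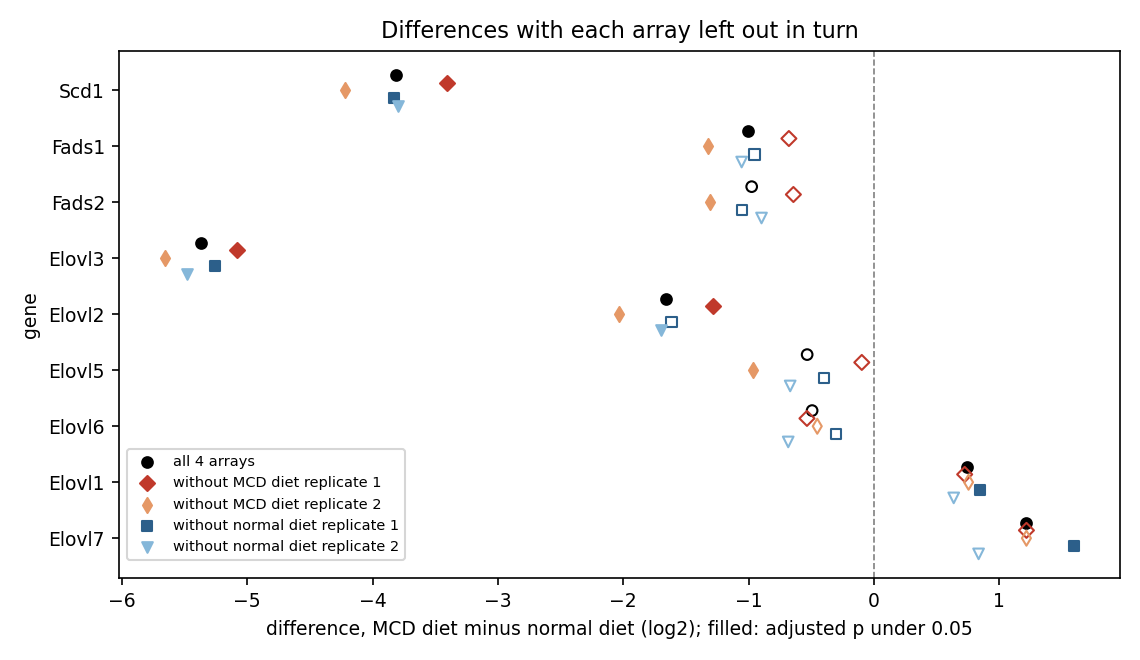
Difference of each measured member (log2, MCD diet minus normal diet) with all 4 arrays and with each array left out in turn; filled symbols are past an adjusted p of 0.05. Scd1 and Elovl3 stay filled throughout. Leaving out MCD diet replicate 1 moves Scd1, Fads1, Fads2, Elovl3, Elovl2 and Elovl5 toward 0 and leaving out replicate 2 moves them away from it, in Elovl5 to -0.10 and -0.97.

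In whole liver, fewer cells of a type and less RNA per cell cannot be told apart, so markers of cell types are given beside the members. Of 9 hepatocyte markers tested, 0 rose and 1 fell by limma, the apolipoprotein gene Apoa1 (-0.50 ± 0.12, limma adjusted p = 0.0493, a call lost with any array left out and under quantile normalization). The summed linear signal of the 9 was 18900 and 18140 on the MCD diet, against 20930 and 20460 on the normal diet. Albumin (Alb) was at 11.99 and 11.93 on the MCD diet, against 12.04 and 11.96 on the normal diet, so the label of liver was borne out on every array. Of the 9 markers 7 had negative differences. Without overlap between the diets 6 were lower and 2 higher, against 29.2% and 25.0% of all genes. Alb lay close to the brightest row of each array. Markers of other cells went different ways. For the counts of calls, 6.37% of all genes rose and 3.62% fell. The median difference was 2.35 for macrophage, 0.86 for cholangiocyte and 1.07 for stellate cell and fibroblast markers, against 0.01 for adipocyte and -0.33 for endothelial markers. Of 10 macrophage markers 9 rose, with summed linear signals of 2489 and 1784 on the MCD diet, against 245.5 and 241.4 on the normal diet. Gpnmb (7.33 ± 0.20) and the lipid receptor Trem2 (3.47 ± 0.22) had the largest rises of that list. Of 8 cholangiocyte markers 7 rose, with sums of 303.2 and 296.3 on the MCD diet, against 70.8 and 62.3 on the normal diet, led by Bicc1 (3.20 ± 0.12) and Epcam (2.35 ± 0.19). That count was 3 when either replicate 1 was left out and 4 when normal diet replicate 2 was. Of 10 stellate cell and fibroblast markers 6 rose, among them Lum (2.91 ± 0.17) and Pdgfra (2.74 ± 0.12), with sums of 1979 and 1934 on the MCD diet, against 867.5 and 716.2 on the normal diet. Of 7 adipocyte markers 1 rose, the lipid droplet protein gene Cidec (3.75 ± 0.35). The list had sums of 417.2 and 498.9 on the MCD diet, against 163.1 and 203.2 on the normal diet. Cidec and Pnpla2, the brightest of the 7, made up most of those sums. Pnpla2, outside the naming rule, did not pass (0.57 ± 0.15, limma adjusted p = 0.0664). The defining adipocyte gene Adipoq was dim throughout, at 1.84 and 1.87 on the MCD diet, against 2.31 and 2.07 on the normal diet. Of 8 endothelial markers 2 fell, Stab2 (-0.82 ± 0.15) and Kdr (-0.76 ± 0.13), with sums of 524.5 and 519.4 on the MCD diet, against 750.1 and 707.4 on the normal diet. Both endothelial calls were lost without MCD diet replicate 1 (adjusted p up to 0.0959 for Kdr and 0.108 for Stab2 over their alternatives) or normal diet replicate 1. The part of these cells in the members' differences was not tested.

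The genes that work with the desaturases and elongases were set beside them in 8 lists, among them the 7 related genes above. Of 6 genes tested in the other steps of the elongation cycle 1 rose and 0 fell, against 6.37% and 3.62% of all genes. Under quantile normalization 2 of the 6 rose. The dehydratase gene Hacd4 had 3.32 and 2.98 on the MCD diet, against a dim 1.81 and 1.88 on the normal diet, and rose by 1.30 ± 0.15 (limma adjusted p = 0.0056). The reductases of the cycle, Hsd17b12 (-0.14 ± 0.12) and Tecr (-0.30 ± 0.21), did not pass. The list had a median of 0.16. Of 6 genes listed for electron supply to desaturases 1 fell, the outer mitochondrial membrane cytochrome gene Cyb5b (-0.77 ± 0.14, limma adjusted p = 0.0254). That call was lost without either MCD diet array or normal diet replicate 1 (adjusted p between 0.0137 and 0.102 over its alternatives). Whether the mitochondrial Cyb5b serves the desaturases was not tested. Cyb5a, which encodes the cytochrome of the endoplasmic reticulum, differed by -0.10 ± 0.12, and its reductase gene Cyb5r3 by -0.36 ± 0.15. Neither passed the threshold (limma adjusted p = 0.686 and 0.205). The largest difference of the list was positive, that of Cyb5r1, with 5.64 and 4.18 on the MCD diet, against 3.63 and 3.94 on the normal diet (1.12 ± 0.44, limma adjusted p = 0.193). Cyb5r4 differed by 0.51 ± 0.13 (limma adjusted p = 0.0637). Without MCD diet replicate 2 the only call of the list was 1 rise, as it was by an unadjusted p under 0.05 with a 2-fold change. Cyb5r1 and Cyb5r4 are named after their values were seen.

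Saturated fatty acid synthesis supplies the substrates. Of 9 genes 4 fell and 0 rose, against 3.62% and 6.37% of all genes. The median was -1.06, near the -0.98 of the members. Thrsp, a lipogenic regulator, had 6.42 and 6.70 on the MCD diet, against 9.36 and 9.61 on the normal diet, and fell by 2.92 ± 0.16 (limma adjusted p = 0.000567). Acss2, which makes acetyl-CoA from acetate, fell by 2.49 ± 0.33, a call lost without MCD diet replicate 1 (adjusted p = 0.0514, the highest over its alternatives, against a lowest of 0.00284). Acacb, the acetyl-CoA carboxylase of the mitochondrial surface, fell by 2.31 ± 0.15 (limma adjusted p = 0.00102). The fourth was Acly (-1.06 ± 0.24), which is outside the naming rule and was chosen after its value was seen. Without MCD diet replicate 1 the count was 2. The count was 3 under quantile normalization and 6 under median centring. Fasn, the fatty acid synthase gene, is also outside the rule and did not pass (-1.30 ± 0.31, limma adjusted p = 0.0553). Its signal was 7.87 and 7.81 on the MCD diet, against 9.64 and 8.63 on the normal diet. Acaca, the other acetyl-CoA carboxylase gene of the list, is outside the rule too. It differed by 0.14 ± 0.18 (limma adjusted p = 0.709), the 1 positive difference of the 9 genes.

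Among 16 transcriptional regulators 1 rose and 2 fell, against 6.37% and 3.62% of all genes. Whether these small counts differ from those shares was not tested. Srebf1, which encodes SREBP-1, had 5.91 and 5.34 on the MCD diet, against 7.46 and 6.72 on the normal diet, and fell by 1.46 ± 0.29 (limma adjusted p = 0.0314). Insig2, which retains SREBPs in the endoplasmic reticulum, fell by 0.69 ± 0.16 (limma adjusted p = 0.0454). Nfya, a subunit of the CCAAT-binding factor NF-Y, rose by 0.77 ± 0.14 (limma adjusted p = 0.023). All 3 calls needed both MCD diet replicate 2 and normal diet replicate 1. Those of Srebf1 and Insig2 were lost without MCD diet replicate 1 too, and those of Insig2 and Nfya without normal diet replicate 2, with adjusted p up to 0.112 for Srebf1, 0.188 for Insig2 and 0.0962 for Nfya over their alternatives. The median of the list was -0.32. Outside the naming rule, Nr1h3 (LXR alpha, -0.14 ± 0.12), Mlxipl (ChREBP, -0.42 ± 0.14) and Ppara (-0.29 ± 0.21) did not pass.

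Genes that handle the fatty acids before and after went both ways. Over all genes 6.37% rose and 3.62% fell by the same rule. Of 5 genes of fatty acid activation 1 rose and 2 fell. Slc27a5, a liver acyl-CoA synthetase that also acts on bile acids, fell by 2.05 ± 0.12 (limma adjusted p = 0.00064). The synthetase gene Acsl5 fell by 1.15 ± 0.17, a call lost without MCD diet replicate 1 (adjusted p = 0.0622, range 0.0066 to 0.0622). Acsl4, whose product prefers arachidonate, rose by 1.11 ± 0.24, a call lost without MCD diet replicate 1 or normal diet replicate 2 (adjusted p between 0.0114 and 0.149 over its alternatives). Of 8 genes of peroxisomal beta-oxidation, which shortens the last intermediate on the way to docosahexaenoic acid, 1 rose and 2 fell. Abcd2, a transporter of very long acyl-CoAs into peroxisomes, had 6.21 and 7.21 on the MCD diet, against 4.72 and 3.72 on the normal diet, and rose by 2.49 ± 0.42 (limma adjusted p = 0.0187). The thiolase genes Scp2 and Acaa1b fell by 0.88 ± 0.16 and 0.64 ± 0.13. The call of Abcd2 was lost without MCD diet replicate 2 or normal diet replicate 2, that of Scp2 without MCD diet replicate 1 or either normal diet array, and that of Acaa1b with any of the 4 arrays left out, with adjusted p up to 0.0593, 0.105 and 0.144 over their alternatives.

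Of 9 acyltransferase genes that place fatty acids into phospholipids 4 rose and 0 fell, against 6.37% and 3.62% of all genes. The median was 0.25. Under quantile normalization, and likewise under median centring, 3 were called higher and 1 lower, and with any array left out 2 were called, both higher. Mboat1, a lysophospholipid acyltransferase gene, had 4.37 and 4.03 on the MCD diet, against 2.42 and 1.99 on the normal diet, and rose by 1.99 ± 0.20 (limma adjusted p = 0.00333). Lpcat2 rose by 1.02 ± 0.13 and Lpcat1 by 0.65 ± 0.15 (limma adjusted p = 0.0459). The dim normal diet signals of Mboat1 and of Lpcat2 (2.90 and 2.98) leave the sizes of their rises uncertain. The call of Lpcat1 was lost under 8 of 13 alternatives, among them quantile normalization (0.446), median centring (0.58) and each array left out, with adjusted p between 0.0381 and 0.19. The fourth, Agpat3 (0.62 ± 0.12), is outside the naming rule. Lpcat3, a main acyltransferase of polyunsaturated chains in mouse liver and also outside the rule, differed by 0.25 ± 0.15 (limma adjusted p = 0.403).

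**Figure D4:**
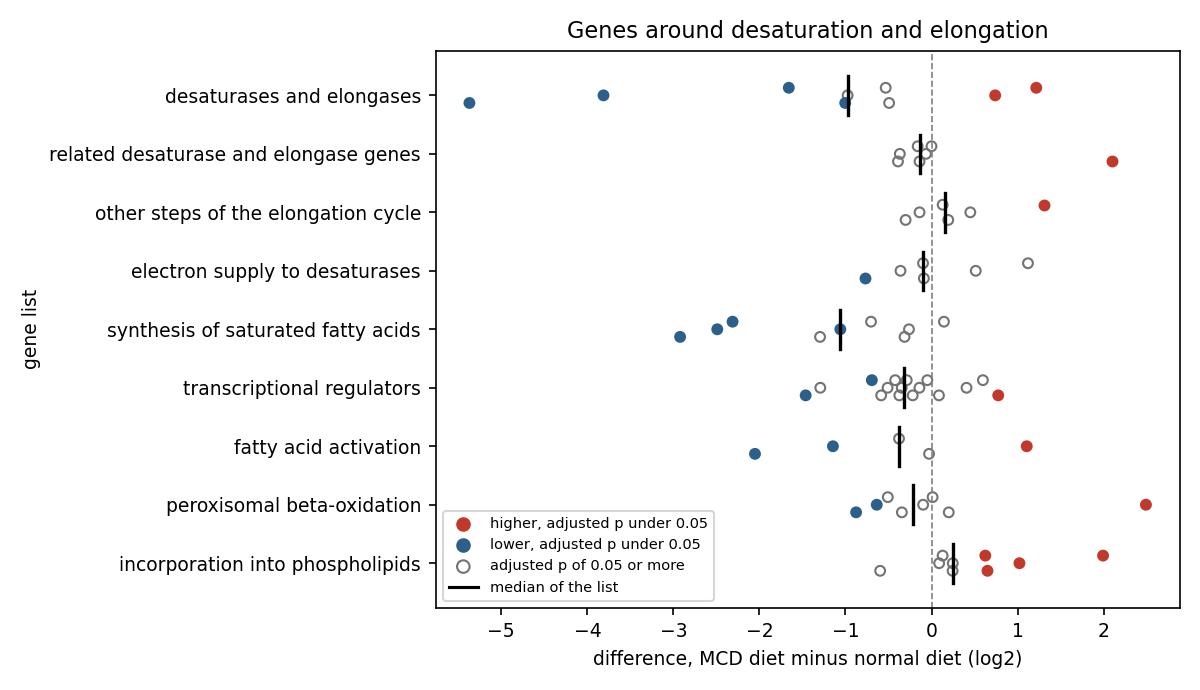
Log2 difference (MCD diet minus normal diet) of every gene tested in the family and in the 8 lists around it, with filled red for higher and filled blue for lower at an adjusted p under 0.05, open circles for the rest and a black bar at each median. The family (median -0.98) and saturated fatty acid synthesis (median -1.06) hold the called decreases furthest to the left, and the called genes of phospholipid incorporation are increases, 4 of 9 (3 higher and 1 lower under either other scaling).

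Genes that flank the members were read apart from members and paralogues, so the called Fads3 and Fads1, next to Fads2, are not counted here. RefSeq order gave 12 protein-coding neighbours of the 9 measured members that were tested, leaving out members and their paralogues. Limma called 0 of the 12 at an adjusted p under 0.05, against 9.98% of all genes, and 12 genes are too few to set these shares apart. Of the 12, 1 had an unadjusted p under 0.05 (Smim13, next to Elovl2, at -0.41 ± 0.12, chosen after its value was seen). Their differences lay between -0.41 and 0.44. Pitx3, which overlaps the end of Elovl3, had 2.06 and 2.41 on the MCD diet, against 2.41 and 2.48 on the normal diet.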

How the data were processed

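Liver RNA from 4 samples was amplified, labelled with biotin and hybridised to Mouse Gene 2.1 ST arrays, per the labels' protocols. The deposited values are log2 signals made by the authors; per the submitters' processing notes the tool was Transcriptome Analysis Console. How it summarized, background-corrected and normalized the arrays is not stated here, and the log base was inferred from the range of the values. No background or detection value was analysed, and the number of arrays limits the precision.

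Of 34472 rows, 23521 name exactly 1 gene in the platform annotation, 1814 name several and 9137 none. The first kind gave 22180 genes, 1082 of them with more than 1 row, where the row with the highest mean was used. All 9 measured members were found in RefSeq (assembly GRCm38.p6), used for names, neighbours and promoter sequence. Of the per-sample columns, 0 were left unused. MCD diet and normal diet were compared with limma 3.58.1 in R 4.3.3 (lmFit, eBayes, two-sided, no block, no filter, Benjamini-Hochberg over all genes). The 2 residual degrees of freedom per gene became 6.06 after moderation. The function was tested on simulated data. Figures and lists were made with Python 3.11.15.

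The naming rule gave all members and, per list, up to 3 called genes (2 for markers) with the largest differences. Members and lists were chosen with earlier results of these data known. Some listed genes were not analysed here. Equal replicate numbers were not treated as pairs, since the labels do not say that they are.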

Additional observations from a re-analysis of the deposited data

Results flagged for a closer look

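The row annotated to both Scd2 and Mir5114 lies outside the comparison, because it does not name 1 gene alone, and carried a higher signal on the MCD diet. It was at 6.22 and 6.25 on the MCD diet arrays, against 5.10 and 4.24 on the normal diet arrays. No array of either diet overlapped the other diet. The difference of 1.56 has no test here. RefSeq places Mir5114 within Scd2, so the row cannot tell these genes apart. Scd2 encodes a stearoyl-CoA desaturase of brain, fat and newborn tissues in mice. The direction of the row is opposite to that of Scd1 (-3.81), and macrophage, cholangiocyte and stellate cell markers were higher on the same arrays; their part in this row was not tested.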

How the results depend on the processing

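The settings tried were other scalings (quantile normalization and median centring), a filter that drops the dimmest 25% or 50% of genes, variance moderation with an intensity trend, every row tested as a feature, rows averaged per gene, a call rule of 2-fold change with an unadjusted p under 0.05, a replicate block, and fits without 1 array. Of the 9 members, 0 changed direction under these 13 settings. Of the 6 called members, 2 (Scd1 and Elovl3) kept their call under all 13. The number of called members lay between 3 and 6 with 1 array left out, and between 4 and 7 otherwise. The number of called genes, 2214, was 1155 with the unadjusted p and 2-fold rule and lay between 1050 and 1493 with 1 array left out. Array signals of equal replicate number deviated with a correlation of 0.054 over genes, which cannot settle whether the samples were paired. With the replicate block 1950 genes and 6 members were called, Fads2 (adjusted p = 0.0335) in place of Fads1 (adjusted p = 0.054). Of the 28 other named genes called, 13 kept their call under every alternative in which they were tested, and 0 changed direction. The median of the electron supply list changed sign under quantile normalization (0.00, against -0.09), as did that of the adipocyte markers under median centring (-0.05, against 0.01). All genes had a median difference of -0.03, -0.02 under quantile normalization and -0.10 under median centring. Dim signals near the floor, as in Elovl7, Hacd4, Mboat1 and Lpcat2 on the normal diet, limit what their differences can show.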
